A study of Ginkgo biloba with 7 samples.

Results

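The miRNAs described here are those of 8 families, miR2950, miR1314, miR1083, miR894, miR6478, miR1511, miR1448 and miR1030, measured in ovules of Ginkgo biloba, together with the genes listed as their targets. Members were chosen by the number in the miRNA name. That rule uses no measured value, but it was set with earlier results of these data known. The rule gave 11 of the 279 miRNA names in the small RNA table. It also gave 42 of the 902 genes in the target list, namely those paired with one of these families and with no other miRNA. A further 12 genes paired with these families were also paired with other miRNAs and are not counted as members.

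The ovules came from 3 to 5 trees of the Fozhi cultivar, about 20 years old and grown outdoors. The pollinated ovules (PN) were taken 1 day after pollination, and the mature ovules (PD) while they secreted the pollination drop, the liquid by which a ginkgo ovule catches airborne pollen. Both stages share cultivar and site, and whether a library pools several trees is not given in the labels. The series has 7 samples: 4 RNA-seq libraries, 2 small RNA libraries and 1 sample of mixed ovules of both stages, which carries the target list. Summed over miRNA names, the table of small RNAs held 1129198 reads in the PN library and 774387 in the PD library. One small RNA library and 1 RNA-seq library per stage could be used, so no value has a replicate error, and a difference is one between 2 libraries. No unpollinated ovules of the later day were sampled, so pollination and the passing of time cannot be told apart. In whole ovules, fewer cells of a type and less RNA per cell cannot be told apart either. The gene IDs carry no names or functions in the files used here, so the tissue was not checked against marker genes and no target is given a role.

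Plant miRNAs are short RNAs that guide an Argonaute protein to mRNAs with a closely matching site, which are then cut or translated less. Some families, such as miR166, which acts on HD-ZIP transcription factors of class III, occur throughout land plants, while others have been recorded in few species. Entries recorded in few species are in general less well established as true miRNAs than the old families. Cut mRNA ends can be sequenced as a degradome to find target sites.

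The prefix of a miRNA name gives the species under which that miRNA is registered, and the 8 families carry prefixes from across the land plants. miR1030 and miR894 have names from the moss Physcomitrella patens (ppt) and miR1083 from the lycophyte Selaginella moellendorffii (smo). miR1314 has names from the pines Pinus taeda (pta) and Pinus densata (pde). The other families have names from flowering plants: Vitis vinifera (vvi) for miR2950, Populus trichocarpa (ptc) for miR1448 and miR6478, and Malus domestica (mdm) and Prunus persica (ppe) for miR1511. All but miR1314 and miR1511, which carry 2 species codes each, thus carry a single code in the table. By contrast the 24 names of miR166 carry 13 codes. A single code was not rare, however: 28 of the 55 families with species codes had only 1, among them miR394 and miR157, which are known from many flowering plants. The codes therefore do not by themselves show that a family is restricted to a lineage.

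In abundance the 8 families formed a high set of 5 and a low set of 3. The grapevine-named vvi-miR2950-5p, the only name of its family, led with 21928 reads in PN and 17338 in PD, or 19419 TPM in PN and 22389 TPM in PD, the deposited count scaled to all reads of the table. By reads summed over names, it was the 4th most abundant of all 80 families at both stages. In PN it stood between miR167 (27108 reads) and the predicted miRNA novel_2 (19615 reads). The pine family miR1314 followed with pta-miR1314 at 6508 TPM in PN and 8813 TPM in PD. Its place was 11th at both stages, in PN between miR159 (10336 reads) and miR162 (6740 reads).

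The lycophyte-named smo-miR1083 had 4362 TPM in PN and 7507 TPM in PD, from 4926 reads in PN and 5813 in PD. It was 13th in PN, just above miR160 (2954 reads in PN), and 12th in PD. The moss-named ppt-miR894 had 2547 TPM in PN and 4132 TPM in PD, from 2876 reads in PN and 3200 in PD. In PN it stood between miR160 and novel_7 (2281 reads). The poplar-named ptc-miR6478 was lower, at 641 TPM in PN and 1457 TPM in PD, from 724 reads in PN and 1128 in PD. It stood 27th in PN, between miR858 (1025 reads) and novel_15 (337 reads), but 20th in PD. These 5 families were readily counted at both stages, each almost wholly under 1 name.

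The remaining families were barely detected. ppe-miR1511-3p had 15 reads in PN and 32 in PD, and mdm-miR1511 had 0 in PN and 2 in PD. ptc-miR1448 had 8 reads in PN and 6 in PD. Of the moss miR1030, ppt-miR1030a had 4 reads in PN and 11 in PD, and ppt-miR1030h had 2 in PN and 4 in PD. The second pine name, pde-miR1314, had 1 read in PN and 0 in PD, where a count of 0 allows up to 3 reads or 3.87 TPM. The counts of ppe-miR1511-3p were the same in both libraries as those of cpa-miR8155, a name of another family, and the family sum of miR1511 (15 in PN and 34 in PD) was the same as that of rgl-miR5139. Likewise ppt-miR1030a had the same counts as ath-miR159b-3p, lus-miR159b and osa-miR159a.1, and ptc-miR1448 the same as cca-miR156b and stu-miR156f-5p. The counts of mdm-miR1511 were shared with 3 other names and those of pde-miR1314 with 22. Outside the 8 families, ties occurred at high counts too. ath-miR396b-3p and ama-miR396-3p each had 2886 reads in PN and 1410 in PD. Likewise ath-miR390a-5p and gma-miR390e each had 4081 in PN and 2490 in PD. Whether reads were counted under more than 1 name was not tested. If they were, the totals and the sums of families with many names are too high, and shares and ranks could shift. None of the 5 names that lead the abundant families shared its counts with another name.

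**Figure D1:**
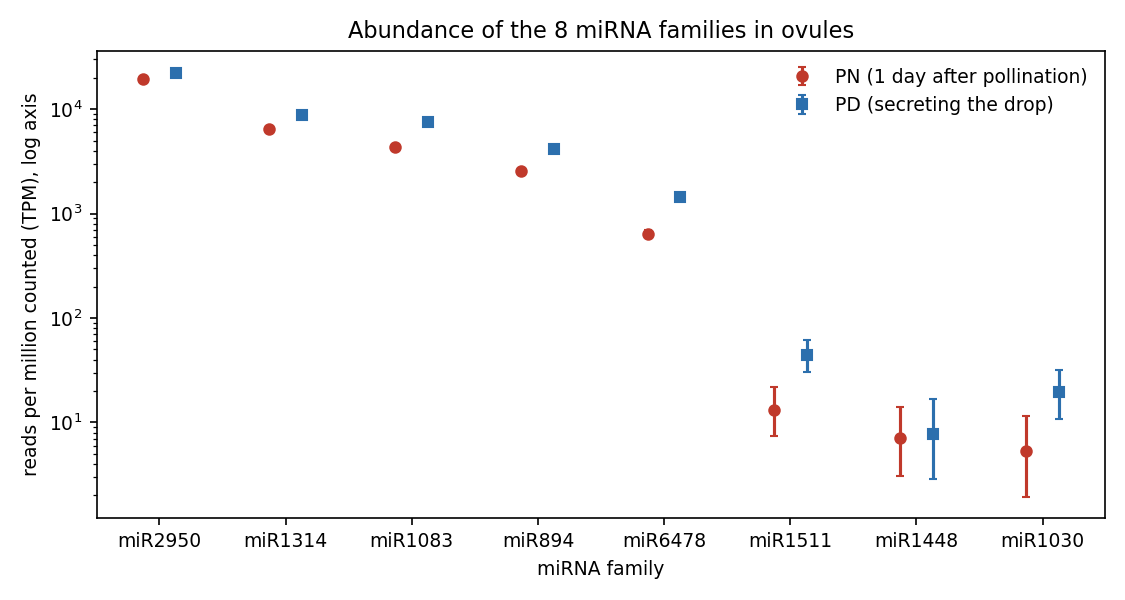
Abundance in TPM (log axis) of the 8 families in the PN and PD small RNA libraries, 1 library each, with exact 95% binomial intervals that cover counting error only. The 5 families from miR2950 to miR6478 lie between 641 and 22389 TPM, the other 3 between 5.31 and 43.9 TPM.

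Together the 8 families held 37833 reads in PN and 34359 in PD, which is 3.35% of counted reads in PN (exact 95% interval 3.32 to 3.38) and 4.44% in PD (4.39 to 4.48). The ratio of these shares, PN over PD, was 0.755 (0.744 to 0.766). Because miR166 took most of the reads, the share was also taken of the reads outside miR166. It was then 17.2% in PN and 21.4% in PD, with a ratio of 0.806 (0.794 to 0.818). Within the 8 families, miR2950 made up 58.0% of the reads in PN and 50.5% in PD, and miR6478 made up 1.91% in PN and 3.28% in PD. All intervals here and below cover counting error only and not the spread between ovules or library preparations.

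The ratio of shares lay below 1 in all 8 families, with intervals that excluded 1 in every family except miR1448. Over all 80 families, the interval lay wholly below 1 in 21 and wholly above 1 in 21. Over the 46 families with at least 50 reads, these counts were 13 and 18. PN over PD, the ratio of shares was 0.440 for miR6478 (95% interval 0.400 to 0.484), 0.581 for miR1083 (0.559 to 0.604) and 0.616 for miR894 (0.586 to 0.648). It was 0.739 for miR1314 (0.715 to 0.763) and 0.867 for miR2950 (0.850 to 0.885), so the most abundant of the 8 differed least among these 5. Of the rare families, miR1511 and miR1030 had the lowest ratios of the 8 but wide intervals, 0.303 for miR1511 (0.153 to 0.571) and 0.274 for miR1030 (0.0872 to 0.748). The third, miR1448, had the highest ratio, 0.914, with an interval from 0.278 to 3.20, so no difference was detectable at its depth of 14 reads.

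In order of the ratio, the intervals of miR1030 and miR1511 overlapped, as did those of miR1511 and miR6478. The intervals of miR1083 and miR894 also overlapped, so the moss and lycophyte names cannot be ordered. Between miR6478 and miR1083, between miR894 and miR1314, and between miR1314 and miR2950 they did not overlap. Among names outside the 8 families with at least 50 reads, the ratios closest to their median of 0.599 were 0.574 for novel_5, 0.657 for ath-miR319c and 0.521 for cme-miR166i.

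A family was called higher or lower with at least 50 reads over both libraries, a ratio of 2 or more in either direction and an interval that excludes 1. By this rule miR6478 was called lower, 1 of the 5 families with enough reads, and none was called higher. Over all 46 families with enough reads, 6.52% were called lower and 10.9% higher. The lower count of the 8 is therefore a single family and depends on the limits: 3 of the 8 were lower with a read minimum of 10, when miR1511 and miR1030 also counted, and 13.4% of all 67 families with that many reads were lower (11.2% of all 80 with no minimum). With a limit of 1.5-fold it was also 3, when miR1083 and miR894 joined miR6478, beside 15.2% of the 46 families.

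Among the other families the ratios lay on both sides of 1. Of these 72 families, 35 had a ratio below 1 and 37 above it, with a median of 1.01. Among those with at least 10 reads, 12 of the 13 other families with 1 species code had a ratio below 1 (median 0.686), against 8 of 24 other families with 2 or more codes (median 1.04). Of the 22 predicted miRNAs with at least 10 reads, 10 had a ratio below 1 (median 1.02). Of those 13 single-code families, 5 had intervals wholly below 1, namely miR3711, miR5139, miR8155, miR6173 and miR5083, and none had one wholly above 1. Each of these 5 had fewer than 50 reads. Of them, miR8155 had the same counts as ppe-miR1511-3p, and miR5139 the same as the family sum of miR1511. They may therefore repeat the reads of miR1511, both here and in the shares of families called lower at a read minimum of 10 or none. The single-code families with 50 reads or more were miR394, miR6300 and miR8175, and their intervals included 1. This grouping by species codes was chosen after the ratios had been seen, and no test was made of it.

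**Figure D2:**
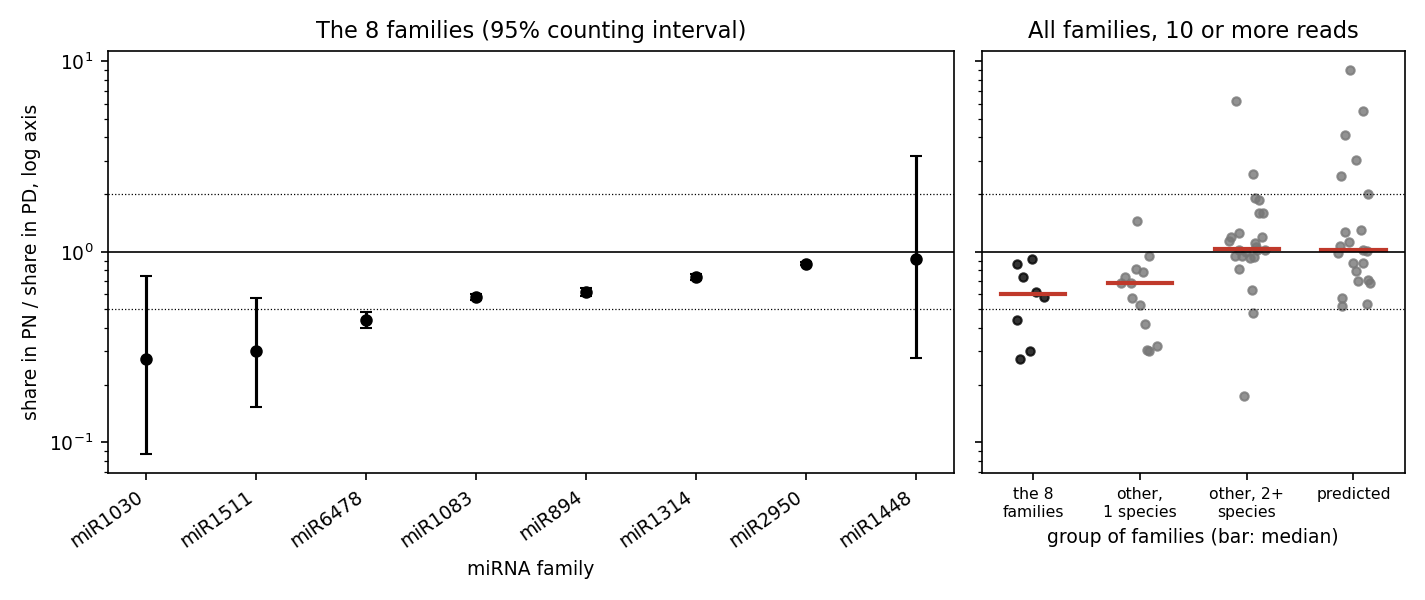
Left, share in PN over share in PD (log axis) for the 8 families with exact 95% counting intervals; dotted lines mark 2-fold. Right, the same ratio for every family with at least 10 reads, grouped by species codes, with medians as bars: 0.599 for the 8 families, 0.686 and 1.04 for other families with 1 and with 2 or more codes, and 1.02 for predicted miRNAs.

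The target list, read here as the degradome result because the series names degradome sequencing, paired the 8 families with 54 genes in 56 pairs. It gives no score, site or read count per pair. The number of listed genes did not follow abundance. miR1030, with 21 reads in all, had the most listed genes (16), and miR1448, with 14 reads, had 8. miR2950 had 9, miR1314 had 10, miR1511 had 4, miR1083 and miR6478 had 3 each, and miR894 had 2. Without the genes shared with other miRNAs, 9 remained for miR2950, 10 for miR1314, 9 for miR1030, 6 for miR1448, 3 for miR1511 and 2 each for miR1083, miR894 and miR6478. One member gene, Gb_29038, was listed for both miR1448 and miR1030.

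Most of the 42 member genes were expressed in ovules. A mean of at least 1 FPKM (a deposited level that allows for gene length and sequencing depth) over the 2 libraries was reached by 38 of them, 90.5%, against 88.3% of the other listed targets and 49.0% of all genes in the table. At 0 FPKM in both libraries were 3 of the 42 members, 55 of the 860 other listed targets and 14708 of all 43456 genes. Cut mRNA ends come only from transcribed genes. Whether the contrast with all genes follows from how the list was made was not tested. The 38 had a median of 37.1 FPKM in PN and 29.8 FPKM in PD. For the other compared targets the medians were 43.2 FPKM in PN and 38.1 FPKM in PD, and for all compared genes 12.6 FPKM in PN and 11.98 FPKM in PD. The 4 genes below the limit were Gb_21883 of miR1030, Gb_02767 of miR1314 and Gb_07339 of miR1511, all listed at 0 in both libraries, and Gb_41524 of miR1314. The last had 0.472 FPKM in PN and 0.556 FPKM in PD.

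Differences are given as log2(FPKM + 1) in PN minus that in PD, and a gene was called at a difference of at least 1, a 2-fold change on that scale. Of the 38 member genes compared, 3 were called higher and 5 lower in PN. This is 7.89% and 13.2% of them, where 9.27% of all 21308 compared genes were called higher and 6.86% lower. The median difference of the 38 was 0.069, beside 0.068 for the other listed targets and 0.11 for all compared genes. As a whole the list thus lay close to the other targets. The balance over all genes depended on scaling: 57.5% of all called genes were higher in PN as deposited and 46.3% once the median of all genes was set to 0, while the members' 3 higher and 5 lower genes were the same in number. Relative to that median of 0.11, 17 of the 38 lay above and 21 below.

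**Figure D3:**
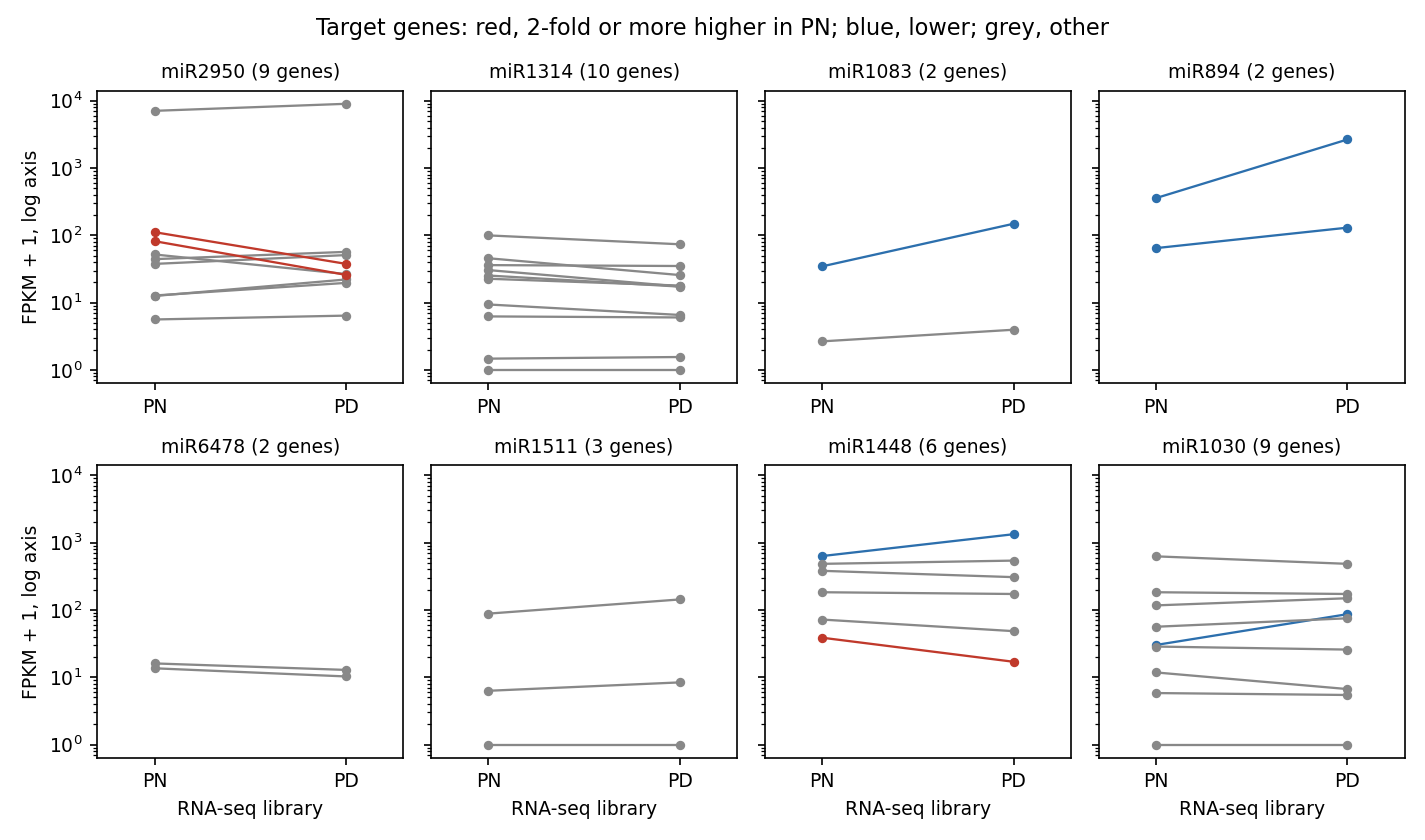
FPKM + 1 (log axis) of each of the 42 member genes in the PN and PD RNA-seq libraries, by miRNA family; lines join the 2 libraries and colours mark genes called higher or lower in PN. Both genes of miR894 are lower in PN, and Gb_14539 of miR2950 lies highest at both stages.

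Both listed targets of miR894 were lower after pollination. Gb_33429 had 356 FPKM in PN and 2653 FPKM in PD, where only 25 genes of the library were more abundant. Its difference of -2.89 was the largest among the members, a 7.43-fold lower value in PN on the FPKM + 1 scale. Gb_21094 had 63.5 FPKM in PN and 129 FPKM in PD, a difference of -1.01 that only just passed the limit. The miRNA and both of its listed targets were thus lower in the same stage, PN.

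miR1083 had a similar pattern, but only 1 of its 2 compared targets was called. Its target Gb_10394 had 33.6 FPKM in PN and 148 FPKM in PD, a difference of -2.10 or 4.30-fold lower. The second, Gb_27043, had 1.66 FPKM in PN and 2.96 FPKM in PD, a difference of -0.57 within 2-fold. Both values lay lower in PN, as did the share of the miRNA.

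The targets of the pine family miR1314 lay on the other side. All 8 compared genes had higher values in PN, by 0.044 to 0.83 with a median of 0.48, and none reached 2-fold. Gb_28961 had 44.7 FPKM in PN and 24.7 FPKM in PD (0.83), and Gb_22138 had 29.5 FPKM in PN and 16.4 FPKM in PD (0.81). Gb_32208, the most abundant of them, had 98.8 FPKM in PN and 72.6 FPKM in PD (0.44). These 3 lay above the median of all genes, 0.11.

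Gb_40983 had 24.3 FPKM in PN and 16.3 FPKM in PD (0.55). Gb_27499 had 8.39 FPKM in PN and 5.56 FPKM in PD (0.52), and Gb_18634 had 21.6 FPKM in PN and 16.9 FPKM in PD (0.34). These genes too lay above the median of all genes. Gb_31226 (5.24 FPKM in PN and 5.03 FPKM in PD) and Gb_23792 (35.1 FPKM in PN and 34.0 FPKM in PD) differed by 0.051 and 0.044. With the median of all genes set to 0 these last genes lay below 0, so 6 of the 8 stayed above it. The genes Gb_23792, Gb_28961 and Gb_32208 were listed for pde-miR1314, which had a single read, and the others for the abundant pta-miR1314.

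The targets of miR2950 were split. Gb_23820 was called higher, with 80.8 FPKM in PN and 24.9 FPKM in PD (1.66), and so was Gb_17349, with 110 FPKM in PN and 36.7 FPKM in PD (1.56). Gb_25557 lay just inside the limit with 50.9 FPKM in PN and 25.6 FPKM in PD (0.97). The other 6 of the 9 genes had lower values in PN, all within 2-fold, which placed the median of the list at -0.35.

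Among these 6 was the most abundant of all members, Gb_14539, with 7074 FPKM in PN and 8997 FPKM in PD (-0.35). Only 1 gene of the PN library and 3 of the PD library had higher FPKM. Gb_01335 had 11.6 FPKM in PN and 21.1 FPKM in PD (-0.81), and Gb_24549 had 11.8 FPKM in PN and 18.7 FPKM in PD (-0.62). Gb_33676, Gb_12524 and Gb_09933 differed by -0.44, -0.36 and -0.19. The list therefore held 3 genes with values higher by 0.97 or more and 6 with values lower by 0.81 or less.

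miR1448, related in poplar to miR482, a family known to act on NBS-LRR disease resistance genes, had 1 target called in each direction. Gb_07066 had 37.6 FPKM in PN and 16.0 FPKM in PD (1.19). Gb_06981, among the most abundant members, had 630 FPKM in PN and 1331 FPKM in PD (-1.08). The other genes lay within 2-fold, at 0.57 for Gb_32707, 0.31 for Gb_36146, 0.087 for Gb_29038 and -0.16 for Gb_02896.

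Of these, Gb_02896 had 483 FPKM in PN and 539 FPKM in PD, and Gb_36146 had 380 FPKM in PN and 306 FPKM in PD. The listed targets of this scarcely counted miRNA were thus abundant transcripts, with medians of 281 FPKM in PN and 239 FPKM in PD over 6 genes. The gene shared with miR1030, Gb_29038, had 182 FPKM in PN and 171 FPKM in PD.

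For miR1030 only Gb_26983 was called, lower, with 29.1 FPKM in PN and 85.4 FPKM in PD (-1.52). The other 7 compared genes lay between -0.42 (Gb_18612) and 0.82 (Gb_11503), and the median was 0.091, which became -0.015 with the median of all genes set to 0. Its most abundant gene, Gb_10868, had 624 FPKM in PN and 483 FPKM in PD (0.37). Gb_16812 had 116 FPKM in PN and 148 FPKM in PD (-0.35). Gb_24377 and Gb_21124 differed by 0.15 and 0.095.

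The last families had few genes and no call. Both targets of miR6478, the family with the called decrease, had slightly higher values in PN: Gb_09427 had 12.6 FPKM in PN and 9.27 FPKM in PD (0.40), and Gb_09429 had 15.03 FPKM in PN and 11.8 FPKM in PD (0.32). Those of miR1511 had lower values, Gb_41424 with 87.1 FPKM in PN and 142 FPKM in PD (-0.70) and Gb_18176 with 5.29 FPKM in PN and 7.38 FPKM in PD (-0.41).

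Set side by side, family medians of the target difference ran from -1.95 for miR894 and -1.34 for miR1083 through -0.56 for miR1511 and -0.35 for miR2950 to 0.091 for miR1030, 0.20 for miR1448, 0.36 for miR6478 and 0.48 for miR1314. All 8 miRNA ratios lay below 1, so target medians lay lower in the same stage as their miRNA in 4 families and higher in the other 4. The latter include miR1448, whose ratio interval included 1, so its place in this tally is not settled. With the median of all genes set to 0, miR1030 changed sides, giving 5 and 3. The medians of miR894, miR1083, miR1511 and miR6478 rest on 2 genes each. That of miR1083 was -0.57 with its shared gene Gb_19041 (-0.26) included, and a filter at a mean of 5 FPKM left only Gb_10394 (-2.10).

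**Figure D4:**
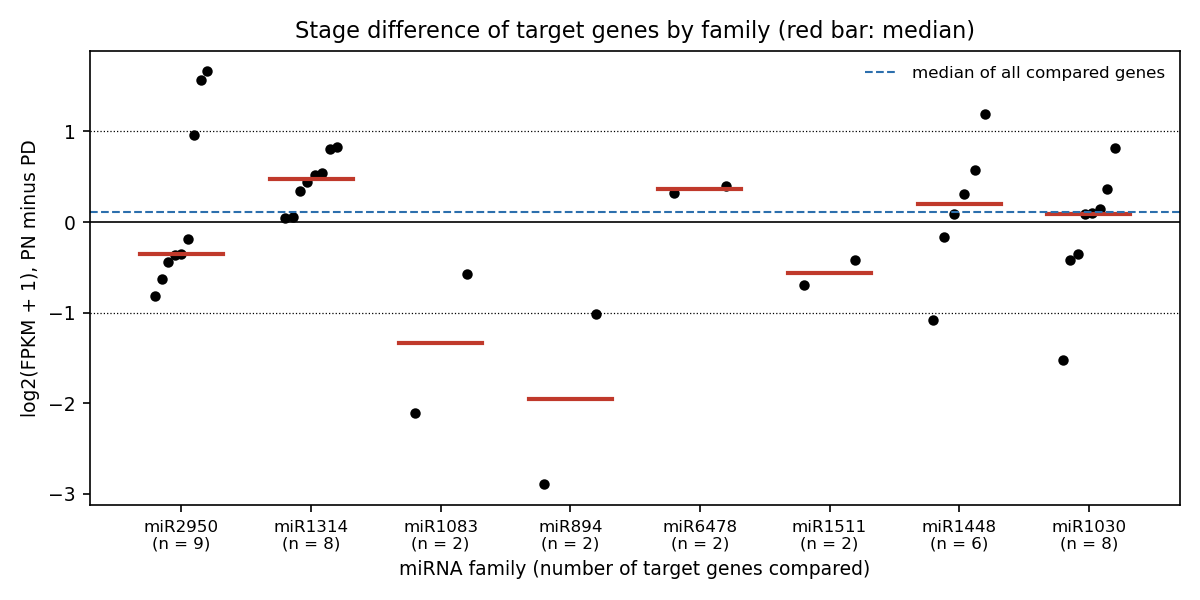
Difference in log2(FPKM + 1), PN minus PD, of every compared member gene by miRNA family, with family medians as red bars, the median of all compared genes (0.11) as a dashed line and the 2-fold limits dotted. The points of miR894 and miR1083 lie below 0 and the 8 points of miR1314 above it.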

How the data were processed

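For small RNAs the deposited table gives, under each miRNA name, an unnormalized read count and a TPM, which equals the count scaled to the sum of its column to within 4.95e-05. Not given in the sources used here are how reads were assigned to names, the genome build and the annotation. Gene values are the authors' FPKM, per the file headers. The submitters' processing notes name Cufflinks 2.1.1, TopHat2 2.0.12, Bowtie and TopHat. The target table, deposited with the mixed sample, holds gene IDs paired with miRNA names; repeated rows were counted once, which left 56 of 60 for these families.

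Of the 4 FPKM columns, 2 bear the same name, PD2, and none PN2. Which sample each belongs to could not be read from the name, so these 2 columns were not used, the planned limma fit could not be made, and differences between 1 library per stage are given without p-values. FPKM gives no absolute depth. Over 2379 genes below 0.5 FPKM the commonest PN to PD ratio put 1 fragment in PN at 0.848 of its worth in PD, a relative depth of 1.18.

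Counts were summed by family. Ratios of shares have exact conditional binomial and single shares exact Clopper-Pearson 95% intervals. Reads are not independent molecules, so intervals and the fixed limit of 3 reads for a count of 0 (2.66 TPM in PN and 3.87 TPM in PD) cover counting error only. Genes with a mean of at least 1 FPKM were compared as log2(FPKM + 1), which understates changes near the pseudocount. Every miRNA name of the 8 families is named. Of the targets, the rule named up to 5 at each end of the difference per family, the 2 most abundant, those called and those of several of the families; the 4 genes under the limit were added after their values were seen. Members and lists were chosen with earlier results of these data known. Sequences of these miRNAs and their target sites were not used here. The calculations, tested on simulated data, used Python 3.11.15, pandas 2.3.3, numpy 2.4.6 and scipy 1.17.1.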

Additional observations from a re-analysis of the deposited data

How the results depend on the processing

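Each ratio was taken again of the reads outside miR166, under median-of-ratios scaling and from the most abundant name alone, and every ratio of the 8 families was below 1 under these settings. Taking the most abundant name alone could change only miR1314, miR1511 and miR1030, since the other families have 1 name each. For miR1314 it left out 1 read. Counting equal names once could not change a ratio, since no names within a family have equal counts, and a read minimum acts on calls alone. The ratios ranged from 0.430 to 0.470 for miR6478, from 0.567 to 0.620 for miR1083, from 0.602 to 0.658 for miR894, from 0.721 to 0.788 for miR1314 and from 0.847 to 0.926 for miR2950. With at least 10 reads or no minimum, the ratios of miR1511 (0.303) and miR1030 (0.274) were called too, and 3 families were lower instead of 1, by construction of the limit; a 1.5-fold limit also gave 3. Counts of called targets were 3 higher and 5 lower under each pseudocount, filter and scaling and with shared targets included, and moved to 7 and 8 with a 1.5-fold limit, where 22.7% of all compared genes were higher and 15.7% lower. Under the settings with a 2-fold limit the share over all compared genes did move. It ran from 4.76% higher and 3.57% lower with no FPKM filter to 12.9% and 9.01% with a pseudocount of 0.1. The median over all member targets, 0.069, was -0.038 with the median of all genes set to 0, which subtracts 0.11 from each gene. No paired analysis was possible because the replicate 2 columns of the gene table could not be assigned to samples. For the same reason no replicate was left out in turn and limma was not run. Depth (49, 14 and 21 reads) limits miR1511, miR1448 and miR1030.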

Other observations

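Genes listed for the 8 families and also for other miRNAs numbered 12. Of these, 10 had a mean of at least 1 FPKM, and none of the 10 was called. Over all compared genes 9.27% were called higher and 6.86% lower, and 10 genes are too few to tell apart from these shares. The 10 include a pair of very abundant transcripts. Gb_23731, listed for miR1448 and ptc-miR160h, had 2876 FPKM in PN and 4608 FPKM in PD (log2 difference on FPKM + 1 of -0.68). Gb_19041, listed for miR1083 and novel_32, had 1198 FPKM in PN and 1436 FPKM in PD (-0.26). The gene shared by miR1448 and its relative miR482 (gra-miR482), Gb_09195, had 18.5 FPKM in PN and 14.2 FPKM in PD (0.36). Gb_04916, listed for miR6478 and sly-miR168a-3p, had 41.9 FPKM in PN and 76.2 FPKM in PD (-0.85).

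Most of the shared genes, 7 of 12, were those of miR1030. Gb_33187 was listed for both of its names and for 9 names of 8 other families, and ppt-miR1030h was paired with it in 4 rows of the table, yet it was scarcely expressed, with 0.552 FPKM in PN and 0.150 FPKM in PD. Gb_15645 was listed for ppt-miR1030h in 2 rows and for 4 other families, and had 42.8 FPKM in PN and 73.6 FPKM in PD (-0.77). Gb_21791, listed for mdm-miR1511, was also listed for cpa-miR8155, the name whose read counts were the same as those of ppe-miR1511-3p.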
